A study of Mus musculus with 4 samples.

Results

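Immediate early genes are switched on within minutes of a stimulus, before any new protein has to be made. The 10 examined here were *Fos*, *Fosb*, *Jun*, *Junb*, *Egr1*, *Egr3*, *Atf3*, *Ier2*, *Ier3* and *Dusp1*. They were picked by name in the authors' table of expression values, which holds 30506 loci, 22483 of them with a gene name. Each of the 10 names stood in a single row. The values come from mammary gland of 4 mice aged 2 months: 2 wild-type *miR-21+/+* mice and 2 *miR-21-/-* mice that lack the microRNA gene. All 4 animals were of the mixed background 129SV::FVB/N::C57BL/6. The comparison asks how the transcripts of the gland differ when miR-21 is missing. Level is given as FPKM, the number of sequenced fragments per kilobase of exon, corrected for the total mapped.

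The table combines the 2 mice of a genotype into a single FPKM value. The mice of a genotype cannot be compared with each other, no test across mice was possible, and every difference below is a description of these 2 combined values. Ratios are log2 of *miR-21-/-* over *miR-21+/+*, so that 1 stands for a doubling.

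Growth factors, cytokines and stress act on these genes through MAP kinases and through factors already bound at their promoters, such as SRF with its ELK partners and CREB. The proteins of *Fos*, *Fosb*, *Jun* and *Junb* pair up to form AP-1, a transcription factor that carries the signal to later genes. *Egr1* and *Egr3* encode zinc finger transcription factors, *Atf3* encodes a stress-induced factor of the ATF/CREB family, and *Dusp1* encodes a phosphatase that switches MAP kinases off again. Their transcripts are short-lived in most tissues.

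In *miR-21-/-* glands 9 of the 10 genes had a higher FPKM and 1, *Dusp1*, a lower one. This count depends on the scale: with both columns brought to equal sums over all loci, 4 were higher and 6 lower, because that scaling moves every ratio by −0.63. The sums over all loci were 759295 FPKM in *miR-21+/+* and 1175603 FPKM in *miR-21-/-* glands. Those over named loci were 380567 and 355385 FPKM, so the higher total came from loci without a gene name. With equal sums over named loci the count was again 9 and 1. Relative to the median ratio of the 9714 named loci above 5 FPKM in at least one genotype, −0.03, 9 of the 10 lay above it. A scaling moves the genes and this median alike, so that count cannot depend on the scale. Of these 9714 loci, 4185 were higher and 5529 lower, and with equal sums over all loci 335 were higher and 9379 lower. The median ratio of the 10 genes was 0.50, from −0.22 for *Dusp1* to 1.08 for *Atf3*.

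Above 5 FPKM in at least one genotype were 8 of the 10, and 2 of these were higher by 2-fold or more, *Egr1* and *Atf3*. Among all 9714 named loci above that minimum, 1.25% were 2-fold or more higher and 1.48% were 2-fold or more lower, and 0 of the 8 genes were in the latter group. *Atf3* passed the minimum only through *miR-21-/-* glands, where it was high. At 1.5-fold or more, 4 of the 8 were higher (*Fos*, *Jun*, *Egr1* and *Atf3*) and 0 lower, against 3.85% and 4.33% of all named loci above the minimum. *Jun* stood just inside the 1.5-fold limit, and *Ier3*, at 1.33-fold, was the next one outside it. *Egr1* and *Fos* lay on either side of the 2-fold limit, at 2.03-fold and 1.87-fold. With a pseudocount of 1 FPKM, on the log2(FPKM + 1) scale, none of the 8 reached 2-fold, and with equal sums over named loci *Fos* was the third to reach it.

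**Figure D1:**
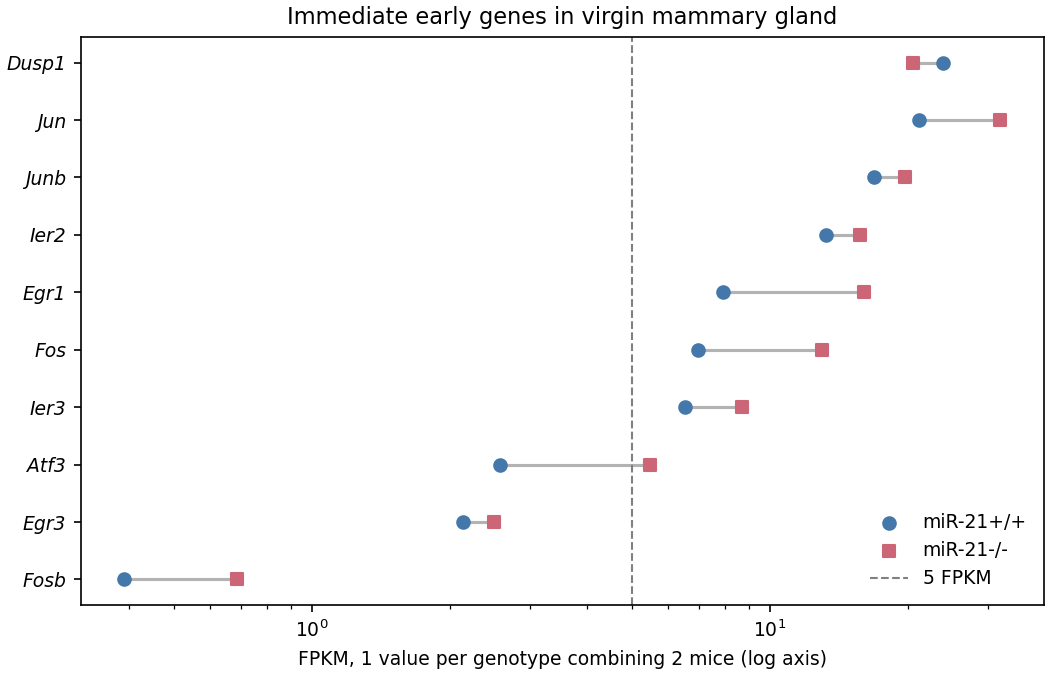
FPKM of the 10 immediate early genes on a log axis, with a circle for *miR-21+/+* and a square for *miR-21-/-*, each combining 2 mice and joined by a line, and a dashed line at 5 FPKM. The longest lines are those of *Atf3* (2.58 and 5.46 FPKM) and *Egr1* (7.89 and 16.0 FPKM), and *Dusp1* alone runs the other way; with equal sums over all loci 6 of the 10 would.

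Among the AP-1 genes, *Fos* (chromosome 12, 86814851 to 86818219, plus strand) was at 6.95 FPKM in *miR-21+/+* and 13.0 FPKM in *miR-21-/-* glands, a log2 ratio of 0.90. Its close relative *Fosb* (chromosome 7, 19888045 to 19895394, minus strand) was the lowest of the 10, at 0.390 and 0.686 FPKM. The log2 ratio of *Fosb*, 0.81, was thus a difference between 2 low values, both below 1 FPKM. *Jun* (chromosome 4, 94715727 to 94718913, minus strand), a gene of 1 exon, was at 21.2 and 31.8 FPKM, a log2 ratio of 0.59. *Junb* (chromosome 8, 87500808 to 87502647, minus strand), also of 1 exon, was at 16.8 and 19.7 FPKM, a log2 ratio of 0.23. In ratio, *Fos* and *Fosb* thus stood above *Jun*, and *Junb* was the lowest of the AP-1 genes among the 10.

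The zinc finger gene *Egr1* (chromosome 18, 35020861 to 35024610, plus strand) was at 7.89 FPKM in *miR-21+/+* and 16.0 FPKM in *miR-21-/-* glands. Its difference of 8.14 FPKM was second to that of *Jun*, 10.6 FPKM, and its log2 ratio was 1.02. *Egr3* was at 2.14 and 2.50 FPKM, a log2 ratio of 0.22. The row of *Egr3* gives a region of 242282 bp (chromosome 14, 70240227 to 70482508) that is shared with *Pebp4*, while the annotated *Egr3* gene spans 2713 bp (70477252 to 70479964). *Atf3* (chromosome 1, 192994176 to 193007212, minus strand) was at 2.58 FPKM in *miR-21+/+* and 5.46 FPKM in *miR-21-/-* glands, the largest ratio of the 10 at 1.08.

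*Ier2* (chromosome 8, 87185230 to 87186751, minus strand), which encodes a small nuclear protein, was at 13.2 and 15.8 FPKM, a log2 ratio of 0.25. *Ier3* (chromosome 17, 35958658 to 35959856, plus strand), whose product acts on cell survival under stress, was at 6.53 and 8.67 FPKM, a log2 ratio of 0.41. *Dusp1* (chromosome 17, 26642536 to 26645417, minus strand) was the most abundant of the 10 in *miR-21+/+* glands, at 23.9 FPKM, and stood at 20.5 FPKM in *miR-21-/-* glands, a log2 ratio of −0.22. The phosphatase was therefore the only one of the 10 whose value was lower, and by less than 1.5-fold. All positions refer to the mouse genome mm9 and count from 1.

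The order of the levels was nearly the same in both genotypes. From the top it ran *Dusp1*, *Jun*, *Junb*, *Ier2*, *Egr1*, *Fos*, *Ier3*, *Atf3*, *Egr3* and *Fosb* in *miR-21+/+* glands. In *miR-21-/-* glands *Jun* stood above *Dusp1* and *Egr1* above *Ier2*, and the other 6 kept their places. Without values per mouse it cannot be said which neighbours in this order differ beyond their spread. Against all named loci, *Dusp1* reached the 87.1th percentile of FPKM in *miR-21+/+* glands and *Fosb* the 35.0th, so that the 10 genes ran from low to moderately high expression.

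Summed over the FOS family (*Fos*, *Fosb*, *Fosl1* and *Fosl2*), the level was 18.7 FPKM in *miR-21+/+* and 33.9 FPKM in *miR-21-/-* glands. The JUN family (*Jun*, *Junb* and *Jund*) summed to 65.4 and 87.3 FPKM. Transcripts of the JUN family were thus 3.50 times as abundant per length as those of the FOS family in *miR-21+/+* glands and 2.58 times in *miR-21-/-* glands. The log2 ratio of the sums was 0.86 for the FOS family and 0.42 for the JUN family, and with equal sums over all loci these were 0.23 and −0.21. Within the families *Fos* made up 37.2% and 38.3% of the FOS family, and *Jun* 32.4% and 36.4% of the JUN family.

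Because ratios scatter more at low FPKM, each gene was set beside the named loci whose mean FPKM lay between 0.5 and 2 times its own. The middle 95% of those loci ran from −0.63 to 0.68 around *Egr1*, from −0.67 to 0.68 around *Fos* and from −1.08 to 0.95 around *Atf3*. These 3 genes lay above the range of their own level, and the other 7 lay inside theirs. *Jun*, at 0.59, was inside a range of −0.61 to 0.63. *Fosb* was inside a range of −2.13 to 1.86, which would also hold every other ratio of the 10. The ranges describe the scatter between loci of these 2 columns and are no measure of the spread between mice.

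**Figure D2:**
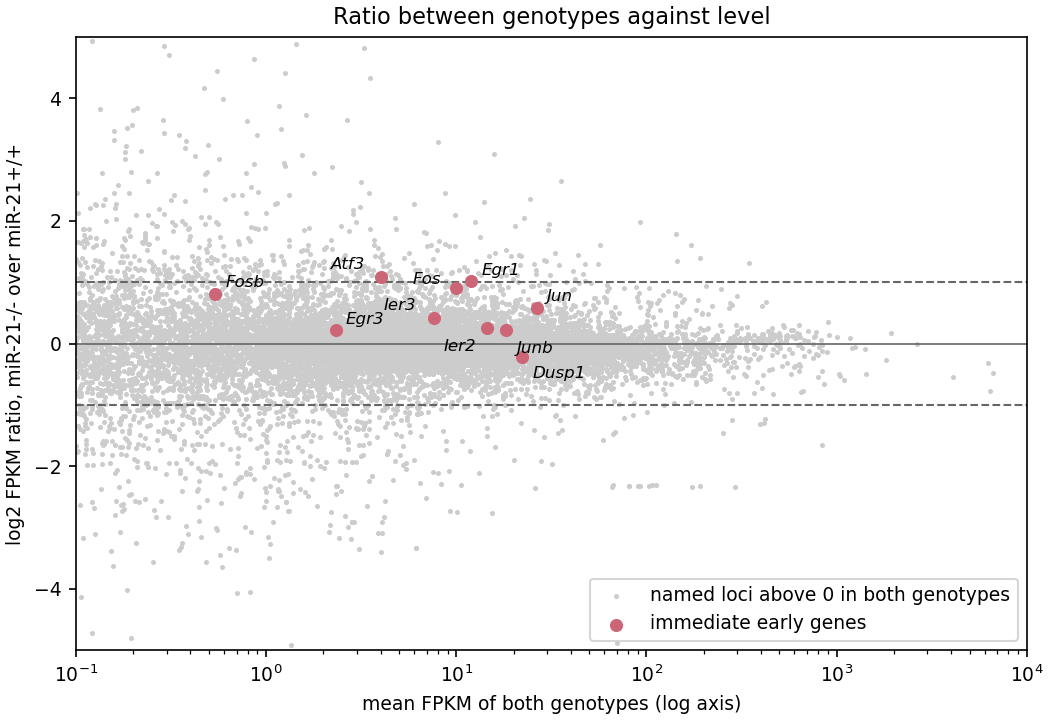
Log2 FPKM ratio of *miR-21-/-* over *miR-21+/+* against the mean FPKM of both genotypes on a log axis, for 16164 named loci (grey) and the 10 immediate early genes (red), with dashed lines at 2-fold; 2009 named loci above 0 in both genotypes lie outside the axes. *Egr1* (1.02) and *Atf3* (1.08) sit on the upper dashed line, and the grey cloud narrows with level; with equal sums over all loci every point moves by −0.63.

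The depth of the libraries is not given with FPKM values. Over genes with 1 annotated transcript, FPKM multiplied by transcript length in kilobases piled up at a smallest common value, 0.0205 for the *miR-21+/+* column and 0.0245 for the other. If it were, the value of *Fosb* would stand for about 71 and 105 reads, that of *Egr3* for 148 and 144, and that of *Atf3* for 250 and 442. The step was too broad to turn the table into counts, and these figures serve only as a rough guide to the lowest 3 of the 10 genes.

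To describe the sequence around the starts of the genes, the promoter windows of 250 bases before to 50 after the start were searched for motifs. Sites outside these windows were not looked for. RefSeq windows (build GRCm38.p6) were at hand for 7 of the 10, each found once and unchanged in mm9. *Egr1*, *Egr3* and *Ier2* had no entry. Both strands were searched for the cyclic AMP response element TGACGTCA (CRE), the shorter core TGACG that it contains, the AP-1 site TGANTCA, the TATA box TATAAA and the SRF-binding CArG box.

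The core was present in 5 of the 7 windows, those of *Fos*, *Fosb*, *Junb*, *Atf3* and *Dusp1*, and in 20.8% of all 32851 promoter windows. The full CRE was present in *Dusp1* only, and in 1.79% of all windows; it contains a core on each strand. The stretches of 30 bases below are shown because CREB-type sites are a feature shared by genes whose ratios differed in sign, *Fos* and *Atf3* on the one hand and *Dusp1* on the other. They read 5′ to 3′ on the strand of the gene, with the motif in capitals and the start as RefSeq gives it.
*Fos*, core 66 to 62 bases before the start, chr12:86814762-86814791, plus strand: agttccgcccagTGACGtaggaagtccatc
*Fosb*, core 60 to 56 bases before the start, chr7:19895437-19895466, minus strand: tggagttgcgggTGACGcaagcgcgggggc
*Junb*, core 106 to 102 bases before the start, chr8:87502736-87502765, minus strand: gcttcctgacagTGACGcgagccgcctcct
*Atf3*, core on the opposite strand 7 to 3 bases before the start, chr1:193007202-193007231, minus strand: ttaatagcattaCGTCAgcctgggattggt
*Dusp1*, full CRE 143 to 136 bases before the start, chr17:26645542-26645571, minus strand: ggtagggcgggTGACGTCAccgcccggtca

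The window of *Fos* held another core and a TATA box 33 to 28 bases before the start, that of *Junb* a TATA box at the RefSeq start itself, and that of *Dusp1* another core. A TATA box was present in 13.6% of all windows, the AP-1 site in 0 of 7 and 7.81%, and the CArG box in 0 of 7 and 1.63%. For *Junb* the GENCODE annotation puts the start further downstream, at 87502617. The windows of *Jun* and *Ier3* held none of the 5 motifs. A match is a run of letters and not a measured site, and none says only that these letters are not in this window.

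Since the deleted gene encodes a microRNA, the annotated 3′ UTRs of the 10 genes were searched for the match to its seed. MicroRNAs lower their targets by pairing of bases 2 to 8, the seed, with the transcript. The mature sequence is shown with the seed in capitals, because it is what the *miR-21-/-* mice lack.
mmu-miR-21a-5p: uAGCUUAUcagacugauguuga

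The match ATAAGCT occurred in 0 of the 10 longest annotated 3′ UTRs, which were 252 to 2120 bases long with a median of 785. It occurred in 6.10% of the 19915 genes with an annotated 3′ UTR, whose median length was 893. The 3′ UTR of *Egr3* was the shortest, at 252 bases, in this annotation (GENCODE, mm9).

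The loci next to the 10 genes were compared to see whether a difference extended beyond the gene. The nearest named locus above 5 FPKM was taken on each side, at 446 to 505279 bp. Of these 20 neighbours, 12 had a ratio above 0 and 8 below it, with a median of 0.03 and a range from −0.13 to 0.76. Of all 9714 named loci above 5 FPKM in at least one genotype, 4185 were higher and 5529 lower. These counts depend on the scale, since equal sums over all loci move every ratio by −0.63. None of the 20 neighbours reached 2-fold, which only 1.25% (higher) and 1.48% (lower) of these named loci did. *Egr1* at 1.02 lay between *Kdm3b* at −0.07 and *Etf1* at −0.05, and *Atf3* at 1.08 between *Tatdn3* at −0.05 and *Nenf* at 0.24. The highest neighbour was *Rtn2*, 6536 bp from *Fosb*, which at 11.8 and 20.0 FPKM had a log2 ratio of 0.76, close to the 0.81 of *Fosb*. For *Egr3* and *Junb* a neighbour stood above the gene itself, *Tnfrsf10b* at 0.57 beside *Egr3* at 0.22 and *Hook2* at 0.49 beside *Junb* at 0.23. The neighbours of *Egr3* were taken outside the region of 242282 bp that its row shares with *Pebp4*. Loci inside that region were passed over, so *Tnfrsf10b* need not be the nearest one to the annotated *Egr3* gene. *Flot1*, 446 bp from *Ier3*, had 0.39 beside 0.41 for *Ier3*.

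**Figure D3:**
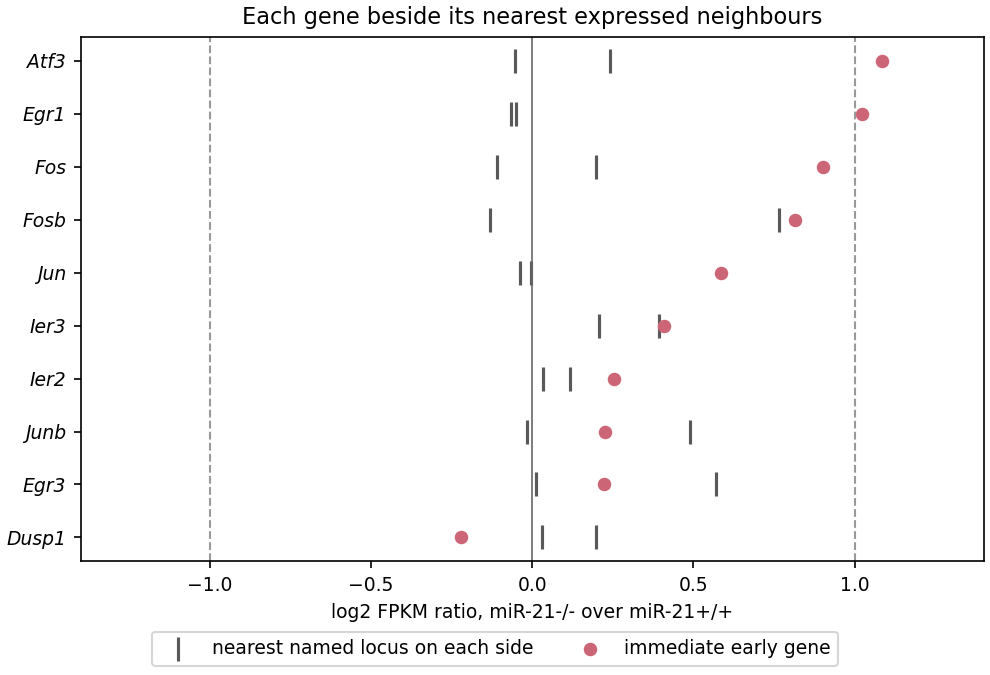
Log2 FPKM ratio of *miR-21-/-* over *miR-21+/+* for each of the 10 immediate early genes (circle) and for the nearest named locus above 5 FPKM on each side (tick), with dashed lines at 2-fold. The ticks of *Egr3* are loci outside the region that its row shares with *Pebp4*. *Atf3*, *Egr1*, *Fos* and *Jun* stand clear above both neighbours, *Dusp1* lies below both, *Fosb* and *Ier3* lie beside one of theirs, and *Junb* and *Egr3* lie below one of theirs; a change of scale moves all points alike.

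Other partners of AP-1 mostly had ratios above 0 on the scale as deposited. Of 13 listed genes of the bZIP class, 11 were higher and 2 lower, and with equal sums over all loci 1 was higher and 12 lower. Of all 9714 named loci above 5 FPKM in at least one genotype, 4185 were higher and 5529 lower, and 335 and 9379 with equal sums over all loci. The median log2 ratio of the 13 genes was 0.15. None of the 8 of them above 5 FPKM reached 2-fold, and 1 was 1.5-fold or more higher, against 3.85% of all named loci above that minimum. That gene was *Fosl2*, a further FOS family member, at 9.39 and 17.9 FPKM, a log2 ratio of 0.93. *Jund*, the most abundant JUN gene, was at 27.3 and 35.8 FPKM, a log2 ratio of 0.39. The lowest ratio above 5 FPKM, −0.20, belonged to a row that merges *Mafg* with *Sirt7*, whose reads the table does not separate.

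A wider list of 41 other immediate early and rapidly induced genes held ratios of either sign. In it 25 were higher and 16 lower, with a median log2 ratio of 0.03, and with equal sums over all loci 6 were higher and 35 lower, with equal sums over named loci 29 and 12. Above the median ratio of the named loci were 28 of the 41. Of the 31 above 5 FPKM, 2 were 2-fold or more higher and 0 lower, against 1.25% and 1.48% of all named loci above that minimum. These were *Gadd45g*, a growth arrest and stress gene, at 14.8 and 36.5 FPKM (log2 ratio 1.30), and *Ctgf*, a matrix-associated growth factor, at 11.7 and 26.9 FPKM (1.20). The table has a second, lower row for *Ctgf* over the same region. The lowest ratios above 5 FPKM were −0.79 for *Egr2*, another zinc finger gene, at 12.8 and 7.41 FPKM, and −0.50 for *Gadd45b* at 7.99 and 5.64 FPKM. *Egr4* was listed at 0 in *miR-21+/+* glands and at 0.0524 FPKM in *miR-21-/-* glands.

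The factors and kinases upstream of these genes had ratios close to 0. Of 26 listed, 25 had a row, with a median log2 ratio of −0.01 and a range from −0.28 to 0.41. Of these, 10 were higher and 15 lower, and with equal sums over all loci 0 were higher and 25 lower, with equal sums over named loci 19 and 6. Of all 9714 named loci above 5 FPKM in at least one genotype, 4185 were higher and 5529 lower, and 335 and 9379 with equal sums over all loci. None of the 24 upstream genes above 5 FPKM reached 1.5-fold, against 3.85% (higher) and 4.33% (lower) of all these named loci. The largest ratio was that of *Srf*, the serum response factor, at 10.7 and 14.2 FPKM (0.41), followed by the kinase *Rps6ka3* (0.29). The lowest were a row that merges *Elk1* with *Cfp* (−0.28) and the JNK gene *Mapk9* (−0.20).

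The other phosphatases of the *Dusp1* family went either way. Of 9 *Dusp* genes, 5 were higher and 4 lower, with a median of 0.00, and with equal sums over all loci 2 were higher and 7 lower. Of all 9714 named loci above 5 FPKM in at least one genotype, 4185 were higher and 5529 lower. None of the 4 *Dusp* genes above 5 FPKM reached 1.5-fold, against 3.85% (higher) and 4.33% (lower) of all these named loci. Among these 4 *Dusp* genes, *Dusp16* had a log2 ratio of 0.54 and *Dusp4* of 0.22, and *Dusp6* and *Dusp7* had −0.13 and −0.04. *Dusp2*, a phosphatase of activated lymphocytes, was 2-fold or more lower, at 3.24 and 0.794 FPKM, but under the minimum of 5 FPKM. Also under it were *Dusp8*, at 2.07 and 4.10 FPKM, and *Dusp5*, at 1.90 and 3.28 FPKM, with log2 ratios of 0.98 and 0.79.

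The listed heat shock genes, most of them induced by stress, were higher throughout. All 8 listed had ratios above 0, with a median of 0.70, and 3 of the 8 reached 2-fold against the 1.25% of named loci above the minimum. With equal sums over all loci 4 were higher and 4 lower. The lowest ratio, 0.35, was that of *Hspa8*, a constitutive rather than inducible gene, in a row merged with *LOC624853*. *Hspa1a* was at 23.4 FPKM in *miR-21+/+* and 63.4 FPKM in *miR-21-/-* glands, a log2 ratio of 1.44. *Hspa1b* was at 31.9 and 78.7 FPKM, a log2 ratio of 1.30. Both encode the inducible HSP70 chaperone from near-identical copies that can share reads, so the split between them is uncertain, and their sum had a log2 ratio of 1.36. *Hsph1*, an HSP70 co-factor, was at 25.0 and 50.4 FPKM, a log2 ratio of 1.01.

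**Figure D4:**
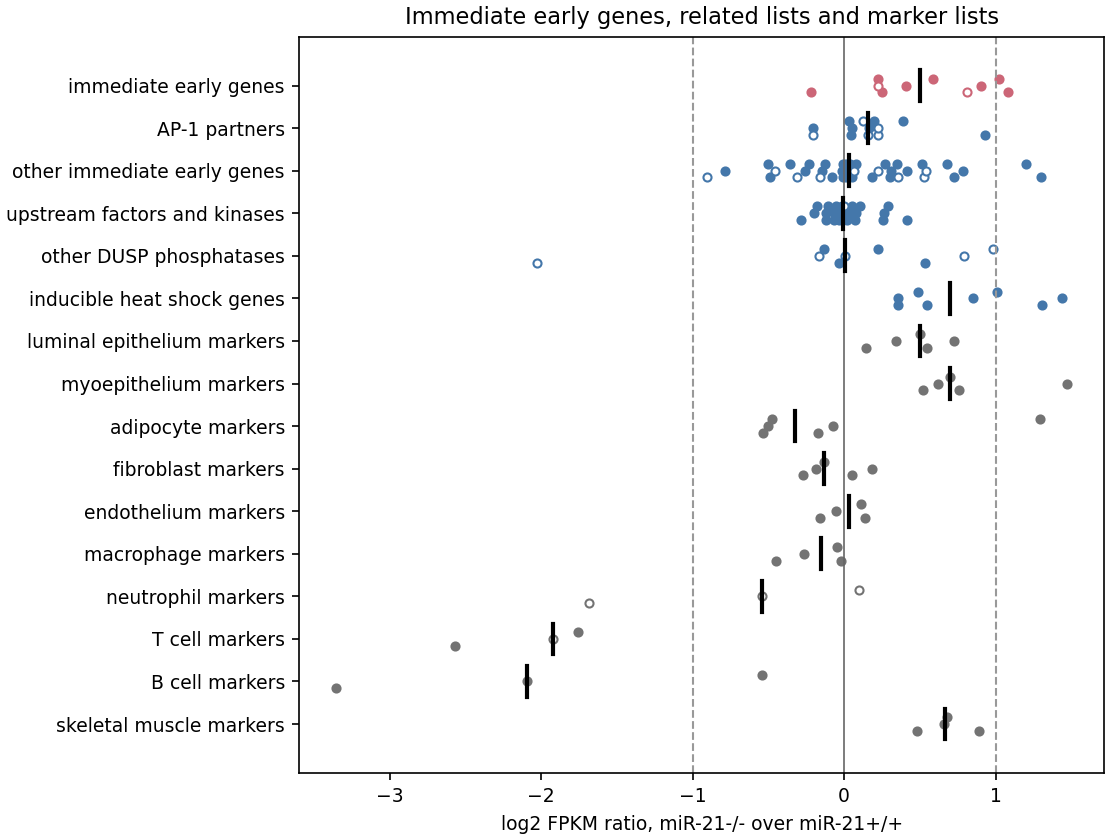
Log2 FPKM ratio of *miR-21-/-* over *miR-21+/+* for each gene of the immediate early genes (red), the related lists (blue) and the cell type marker lists (grey); filled points are above 5 FPKM in at least one genotype, black bars are list medians and dashed lines mark 2-fold (*Egr4*, listed at 0 in *miR-21+/+*, is not drawn). The medians of the immediate early genes (0.50) and heat shock genes (0.70) lie to the right of those of the other related lists, and the B and T cell markers lie far to the left; with equal sums over all loci every point moves by −0.63.

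Markers of the cell types of the gland differed between the 2 columns as well. In a whole gland, fewer cells of a type and less RNA per cell cannot be told apart. The defining markers of the gland were present, with *Krt8* of luminal epithelium at 119 and 197 FPKM and *Adipoq* of adipocytes at 1207 and 853 FPKM. All 5 luminal markers were higher in *miR-21-/-* glands and their sum was 578 and 780 FPKM; with equal sums over all loci 1 of them was higher. All 5 myoepithelial markers were higher, with a median log2 ratio of 0.70, and 4 of them, without a row that merges *Krt14* with *Krt16*, summed to 275 and 442 FPKM; with equal sums over all loci 3 were higher. All 4 skeletal muscle markers were higher, summing to 880 and 1413 FPKM, and 3 were with equal sums over all loci. The medians of the luminal and muscle lists were 0.50 and 0.67, beside 0.50 for the immediate early genes, and the part of these cell types in that value was not tested.

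Lymphocyte markers ran the other way. All 3 B cell markers were lower, with a median log2 ratio of −2.09. *Ms4a1* was at 5.61 and 0.549 FPKM and *Cd79b* at 12.3 and 2.88 FPKM, while *Cd79a*, in a row merged with *Arhgef1*, was at 70.3 and 48.3 FPKM. All 3 T cell markers were lower, summing to 18.5 and 4.40 FPKM. Of 6 adipocyte markers 5 were lower, with a median of −0.33 (the exception, *Lep*, was at 27.7 and 67.9 FPKM), and of 5 fibroblast markers 3 were lower, with a median of −0.13. The 4 endothelial markers had a median of 0.03, the 4 macrophage markers −0.15, and the 3 neutrophil markers, all under 5 FPKM, −0.54. With equal sums over named loci 2 of the 6 adipocyte and 2 of the 4 macrophage markers were higher. Whether any of these differences bears on the immediate early genes was not tested.

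The locus of the deleted gene itself was listed as a row that merges *Mir21* with *Vmp1*, the host transcript, at 42.5 and 68.2 FPKM. This value is that of the long transcript and does not check the genotype labels.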

How the data were processed

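Poly(A) RNA from mammary gland of 2 *miR-21+/+* and 2 *miR-21-/-* mice was sequenced as single-end reads by the authors. The authors used TopHat for alignment (mm9) and Cufflinks for FPKM; versions, annotation and normalization options are not given in the sources used here. The FPKM values were used as the authors deposited them, with 1 value per genotype. The deposited table also holds the authors' fold changes, test statistics, p-values, q-values and calls, which were not used.

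Ratios were computed without a pseudocount. A locus was counted as differing at 2-fold or more (alternatively 1.5-fold and 3-fold) and above 5 FPKM in at least one genotype. These are the fold and FPKM limits of the study, which also required statistical significance. That was not applied here, so the counts are not like the study's own. The genes and the lists were chosen with earlier results of these data known. All 10 genes are named, and from each related list the 2 largest and 2 smallest ratios above 5 FPKM and each gene past 2-fold. A listed marker was left out and is not reported here. For a name with several rows the row with the highest mean was kept. Locus starts were raised by 1, since 8351 then matched annotated gene starts, against 487 as printed. Other alternatives were pseudocounts of 1 and 0.1 FPKM, other FPKM minimums, 3 scalings and the sum of all rows of a name. The scripts were tested on planted ratios and motifs. Python 3.11.15 with numpy 2.4.6, pandas 2.3.3 and matplotlib 3.10.9 was used.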

Additional observations from a re-analysis of the deposited data

How the results depend on the processing

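The median log2 ratio of the 10 genes, 0.50, was 0.32 with a pseudocount of 1 FPKM and −0.13 with both columns scaled to equal sums over all loci, a scaling that moves every ratio by −0.63 and puts the median of named loci above 5 FPKM at −0.66. Under that scaling the ratios of *Jun* (−0.044), *Junb* (−0.41), *Egr3* (−0.41), *Ier2* (−0.38) and *Ier3* (−0.22) changed sign, while *Atf3* (0.45), *Egr1* (0.39), *Fos* (0.27) and *Fosb* (0.18) stayed above 0. The number of genes 2-fold or more higher, 2, was 0 with a pseudocount of 1 FPKM, 0 with equal sums over all loci, 4 at 1.5-fold, 0 at 3-fold, 3 with equal sums over named loci (*Fos* then passes) and 1 with more than 5 FPKM required in both genotypes. The number 2-fold or more lower was 0 under each of these. *Fosb*, the lowest gene, moved from 0.81 to 0.28 with a pseudocount of 1 FPKM and to 0.68 with 0.1 FPKM. No paired analysis was possible because each genotype has 1 combined value, and leaving out mice was not run for the same reason. Depth limits *Fosb*, *Egr3* and *Atf3* most, as the lowest of the 10.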

Other observations

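In 3 families of early response genes the members had ratios of either sign. In the EGR family the log2 ratios were 1.02 for *Egr1*, 0.22 for *Egr3* and −0.79 for *Egr2*. In the GADD45 family, which answers to DNA damage and growth arrest, they were 1.30 for *Gadd45g*, 0.68 for *Gadd45a* and −0.50 for *Gadd45b*. In the NR4A family of orphan nuclear receptors they were 0.30 for *Nr4a1*, −0.16 for *Nr4a2* and −0.90 for *Nr4a3*, the latter at 1.90 and 1.02 FPKM. These families were picked out after seeing the values. The FOS family did not show it: *Fos*, *Fosb*, *Fosl1* and *Fosl2* had 0.90, 0.81, 0.22 and 0.93. The KLF genes also had either sign, over a narrower range: *Klf6*, *Klf10*, *Klf4* and *Klf2* had 0.35, 0.31, 0.01 and −0.14. With equal sums over all loci *Egr3*, *Nr4a1* and their lower relatives all lay below 0. The mRNA decay gene *Zfp36* and *Btg2*, both induced together with *Fos* in many cells, had ratios of 0.01 and −0.01.

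Loci without a gene name lay within 10000 bp of 3 of the 10 genes, 5 near *Jun*, 4 near *Junb* and 4 near *Ier2*. The highest reached 1.35 FPKM in *miR-21+/+* and 1.39 FPKM in *miR-21-/-* glands, near *Ier2*.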
